A study of Mus musculus with 3 samples.

Results

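The genes described here handle nucleotides outside the cell, from the release of ATP to the receptors for adenosine, and were read in mouse peritoneal macrophages that were kept with apoptotic cells, treated with LPS or left untreated. They are the 10 genes Panx1, P2rx4, P2rx7, P2ry2, P2ry6, Entpd1, Nt5e, Ada, Adora2a and Adora2b, taken by symbol out of 20574 genes in the deposited tables. They were picked with their values in the 3 libraries known, so those values are given as a description, without tests. Each condition has 1 library. The cells kept with apoptotic cells were wild-type primary peritoneal macrophages given 5 apoptotic cells per macrophage for 5 h. The LPS cells were wild-type macrophages that received LPS at 100 ng/ml for 5 h. LPS is the bacterial lipopolysaccharide that triggers inflammatory signalling. The untreated cells were wild-type macrophages with no coculture, and no time is given for them, so treatment cannot be told apart from time in culture. Cells that had not been engulfed were rinsed off before harvest. The type of apoptotic cell and the strain, sex and age of the mice are not stated in the labels.

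Dying and inflamed cells let ATP out into the space around them, in part through pannexin channels. ATP itself acts on P2X channels and P2Y receptors, which call in phagocytes and can switch on the inflammasome, the complex that matures interleukin 1 beta. The ectoenzymes CD39, encoded by Entpd1, and CD73, encoded by Nt5e, take ATP and ADP down to AMP and then to adenosine, which acts on the receptors encoded by Adora2a and Adora2b to raise cAMP and to damp macrophage cytokine output. Adenosine deaminase, encoded by Ada, ends that signal by turning adenosine into inosine.

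Values are taken as FPKM because of the tools that the submitters name. FPKM are fragment counts divided by transcript length and by the mapped fragments of the library. On that reading, levels can be compared between genes. The steps between the smallest values give about 6.45, 6.02 and 6.61 reads for 1 FPKM on 2 kb of transcript in the apoptotic-cell, LPS and untreated libraries. The FPKM values sum to 197222, 200224 and 199881 in the same order. Intervals below come from reads estimated in this way for the longest coding transcript of each gene. They are 95% intervals (exact Poisson for a level, exact binomial for a ratio) that cover counting error only and say nothing of the spread between cultures or mice. A value of exactly 0 may be a failed estimate: Eef1a1, a translation factor that every cell uses, is listed at 0 in both treated libraries and at 5641 FPKM in the untreated library. A gene at 0 is therefore given as listed at 0, and ratios were formed only where both values are above 0.

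Of the 30 values of the 10 genes, 19 are above 0 and 11 are listed at 0. Panx1, Nt5e, Ada and Adora2b are above 0 in all 3 libraries, P2rx7 has 1 listed 0, and the other 5 genes have 2 each. In all, 7 genes are above 0 with apoptotic cells, 5 with LPS and 7 in the untreated library. The plot of levels shows Nt5e high and Adora2b low after apoptotic cells, and the reverse after LPS.

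**Figure D1:**
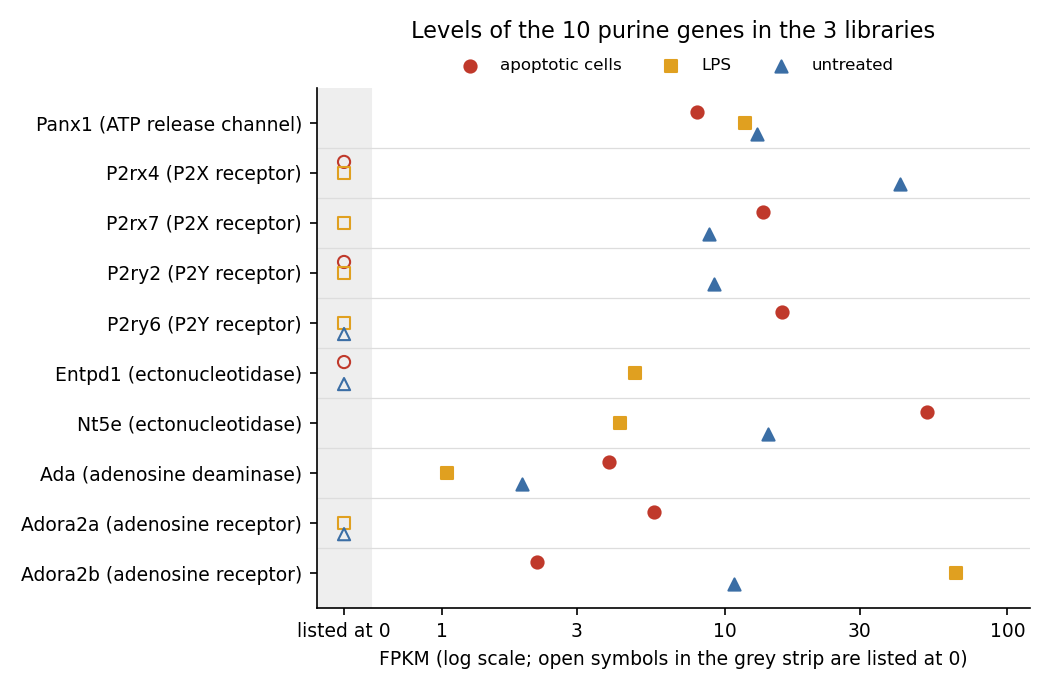
Level of each of the 10 genes (rows, by role) in FPKM on a log axis, with 1 symbol per library and no replicates; open symbols in the grey strip are listed at 0. Nt5e stands at 52.1 FPKM after apoptotic cells and 4.25 FPKM after LPS, and Adora2b at 2.16 and 65.7 FPKM in the same libraries.

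Panx1 forms the pannexin 1 channel, which lets ATP out of cells and is opened by caspase cleavage in apoptotic cells. It lies on chromosome 9 from 15002128 to 15045478 (mm10, minus strand). It stood at 7.97 FPKM with apoptotic cells (interval 6.69 to 9.38), 11.8 FPKM with LPS (10.2 to 13.6) and 13.045 FPKM untreated (11.4 to 14.8). The LPS and untreated values lie within each other's counting error, and the apoptotic-cell value lies below both.

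P2rx4 and P2rx7 encode ATP-gated cation channels. P2X7 needs far more ATP to open than P2X4, and its opening is a classic trigger of the NLRP3 inflammasome. The genes are neighbours on chromosome 5, both on the plus strand, P2rx7 from 122643911 to 122691432 and P2rx4 from 122707544 to 122729738, with 16111 bases and no other coding gene between them. P2rx4 is listed at 0 with apoptotic cells, at 0 with LPS and at 41.7 FPKM (interval 37.4 to 46.4) in the untreated library, where it is the highest of the 10 genes. P2rx7 stood at 13.6 FPKM with apoptotic cells (11.8 to 15.6), is listed at 0 with LPS and stood at 8.77 FPKM untreated (7.37 to 10.4). The apoptotic-cell value of P2rx7 is thus above the untreated one by more than counting error, whereas no level can be set against the listed 0 of either gene.

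P2ry2 and P2ry6 encode G-protein-coupled receptors. P2Y2 answers to ATP and UTP and is known for drawing phagocytes towards nucleotides from apoptotic cells. P2Y6 answers to UDP and has been tied to phagocytosis in rodent microglia. These genes are neighbours as well, on the minus strand of chromosome 7, P2ry6 from 100937630 to 100974649 and P2ry2 from 100996568 to 101012866, with 21918 bases between them. P2ry2 is listed at 0 with apoptotic cells and with LPS and stood at 9.14 FPKM untreated (interval 7.24 to 11.3). P2ry6 stood at 15.9 FPKM with apoptotic cells (12.8 to 19.7) and is listed at 0 with LPS and untreated. Each of these receptor genes therefore has a level in a single library, and not the same one.

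Entpd1 lies on chromosome 19 from 40612366 to 40741602. It is listed at 0 with apoptotic cells, at 4.80 FPKM with LPS (interval 3.67 to 6.22) and at 0 untreated. So the enzyme gene of the step before CD73 has a level in the LPS library alone, and its course over the 3 conditions cannot be read from these values.

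Nt5e, on chromosome 9 from 88327197 to 88372092, encodes the enzyme that makes adenosine from AMP at the cell surface. It stood at 52.1 FPKM with apoptotic cells (interval 48.1 to 56.3), 4.25 FPKM with LPS (3.13 to 5.60) and 14.2 FPKM untreated (12.2 to 16.5). The intervals do not overlap: the apoptotic-cell library is highest and the LPS library lowest. Among the genes above 0 in its library, the apoptotic-cell value is at percentile 92.4, the LPS value at 53.9 and the untreated value at 75.4.

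Ada, on chromosome 2 from 163726584 to 163750239, was low in every library, and the lowest of the genes above 0 with LPS and untreated. It stood at 3.90 FPKM with apoptotic cells (interval 2.34 to 6.24), 1.04 FPKM with LPS (0.351 to 2.52) and 1.92 FPKM untreated (0.866 to 3.59). These values rest on an estimated 18, 5 and 9 reads. They have the same order as those of Nt5e, but all 3 intervals overlap.

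Adora2a and Adora2b encode adenosine receptors that both couple to the G protein that raises cAMP. The product of Adora2b binds adenosine more weakly than that of Adora2a and is engaged where adenosine is high. Adora2a, on chromosome 10 from 75316877 to 75334784, stood at 5.64 FPKM with apoptotic cells (interval 4.04 to 7.58) and is listed at 0 with LPS and untreated. Adora2b, on chromosome 11 from 62248984 to 62266453, stood at 2.16 FPKM with apoptotic cells (1.08 to 3.89), 65.7 FPKM with LPS (58.9 to 73.1) and 10.8 FPKM untreated (8.19 to 14.01). Its order is the reverse of that of Nt5e, with LPS highest and apoptotic cells lowest and no overlap of intervals. At percentile 93.9 it is the highest of the 10 genes in the LPS library, and at 38.5 the lowest of those above 0 with apoptotic cells.

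Promoter letters are shown for Adora2b, which has the most extreme ratios, and for Ada, whose window holds the NF-kB site found in these genes. They are the 250 bases before the start in the RefSeq promoter table (GRCm38.p6, the assembly of mm10), Adora2b at chr11:62248734-62248983 on the plus strand and Ada at chr2:163750240-163750489 on the minus strand. Capitals mark a match to the NF-kB consensus.
Adora2b: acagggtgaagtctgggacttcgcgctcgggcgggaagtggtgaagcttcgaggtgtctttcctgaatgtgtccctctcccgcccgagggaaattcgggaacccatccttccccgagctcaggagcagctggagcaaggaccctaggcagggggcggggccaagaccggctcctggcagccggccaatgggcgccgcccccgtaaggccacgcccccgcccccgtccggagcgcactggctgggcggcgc
Ada: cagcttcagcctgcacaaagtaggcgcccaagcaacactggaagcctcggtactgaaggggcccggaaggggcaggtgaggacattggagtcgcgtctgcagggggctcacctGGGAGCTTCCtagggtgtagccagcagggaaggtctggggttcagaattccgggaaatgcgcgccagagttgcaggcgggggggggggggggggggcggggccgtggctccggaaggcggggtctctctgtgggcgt
The table holds windows for 8 of the 10 genes (11 windows, since some have several starts), and P2ry6 and Adora2a had no entry. Motifs were searched on both strands. The palindromic cAMP response element TGACGTCA is in 0 of the 11 windows and in 1.55% of all 32851 windows of that length. The core of that element, TGACG, which is part of the longer motif, is in 4 windows, of P2rx4, Panx1 and Entpd1, and in 17.8% of all windows. The NF-kB consensus is in 1 window, that of Ada, and in 7.25% of all. The window of Adora2b holds none of the 3 motifs as spelled here, which says nothing of whether such factors act on the gene.

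Within a library the genes ranked differently. With apoptotic cells the order was Nt5e, P2ry6, P2rx7, Panx1, Adora2a, Ada and Adora2b, where the counting intervals of P2ry6 and P2rx7 overlap, as do those of each pair of neighbours from Panx1 to Adora2b. With LPS it was Adora2b, Panx1, Entpd1, Nt5e and Ada, and the intervals of Entpd1 and Nt5e overlap. In the untreated library it was P2rx4, Nt5e, Panx1, Adora2b, P2ry2, P2rx7 and Ada, where the intervals of each pair of neighbours from Nt5e to P2rx7 overlap. As levels per length, Nt5e was 24.1 times Adora2b with apoptotic cells and 1.32 times Adora2b untreated, while Adora2b was 15.5 times Nt5e with LPS.

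The first comparison asks how these genes stood after uptake of apoptotic cells relative to no treatment. Differences are log2 ratios of FPKM + 1, which understate differences of low genes, and at least 2-fold is a log2 ratio of at least 1 in size. Of 5 genes above 0 in both libraries, 1 (Nt5e) was at least 2-fold higher and 1 (Adora2b) at least 2-fold lower with apoptotic cells. Among all 3369 genes above 0 in both that averaged at least 1 FPKM, 12.4% were higher and 16.4% lower by that measure (418 and 554 genes, against 538 and 428 with median-of-ratios scaling). Because these genes were picked on such values, nothing is read from their share.

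Nt5e had a log2 ratio of 1.80, which 3.59% of all genes exceeded, and a plain ratio of FPKM of 3.66 (interval 3.09 to 4.36). Adora2b was 4.99-fold lower in plain FPKM (2.58 to 10.5). Its log2 ratio was -1.90, with 4.96% of all genes below it. P2rx7 (0.58), Ada (0.75) and Panx1 (-0.65) differed by less than 2-fold on this scale. For Ada the plain ratio is 2.03, but its interval of 0.890 to 5.27 takes in no difference. The counting intervals of P2rx7 (1.24 to 1.94) and Panx1 (0.492 to 0.756) leave out a ratio of 1.

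The second comparison sets LPS, an inflammatory stimulus, against no treatment. Of 4 genes above 0 in both libraries, 1 (Adora2b) was at least 2-fold higher and 1 (Nt5e) at least 2-fold lower with LPS, where 8.51% and 26.2% of all 3421 genes were. Those shares are 291 higher and 896 lower genes, which median-of-ratios scaling turned to 647 and 450. Adora2b had a log2 ratio of 2.50, which 0.789% of all genes exceeded, and a plain ratio of 6.09 (interval 4.58 to 8.20). Nt5e was 3.35-fold lower in plain FPKM (2.43 to 4.70). Its log2 ratio was -1.54, with 11.6% of all genes below it. With median-of-ratios scaling Nt5e came to -0.99, just short of 2-fold. Ada had a log2 ratio of -0.52 on 5 and 9 estimated reads, and was 1.85-fold lower in plain FPKM, with an interval of 0.527 to 6.65 that takes in 1. Panx1 had -0.14, which turns to 0.44 with median-of-ratios and 0.23 with upper-quartile scaling.

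The third comparison sets the treated libraries against each other. With apoptotic cells over LPS, 2 of 4 genes (Nt5e and Ada) were at least 2-fold higher and 1 (Adora2b) lower, where 15.7% and 5.54% of all 4599 genes were (722 and 255 genes, or 419 and 443 with median-of-ratios scaling). Nt5e had a log2 ratio of 3.34, which 0.304% of all genes exceeded, and a plain ratio of 12.3 (interval 9.18 to 16.8). Adora2b was 30.4-fold lower in plain FPKM with apoptotic cells than with LPS (16.7 to 61.2). Its log2 ratio was -4.40, with 0.196% of all genes below it. Ada had 1.27, a plain ratio of 3.76 on 18 and 5 estimated reads (1.31 to 12.6), and Panx1 had -0.51. The comparisons share libraries, so their ratios are not independent of each other.

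**Figure D2:**
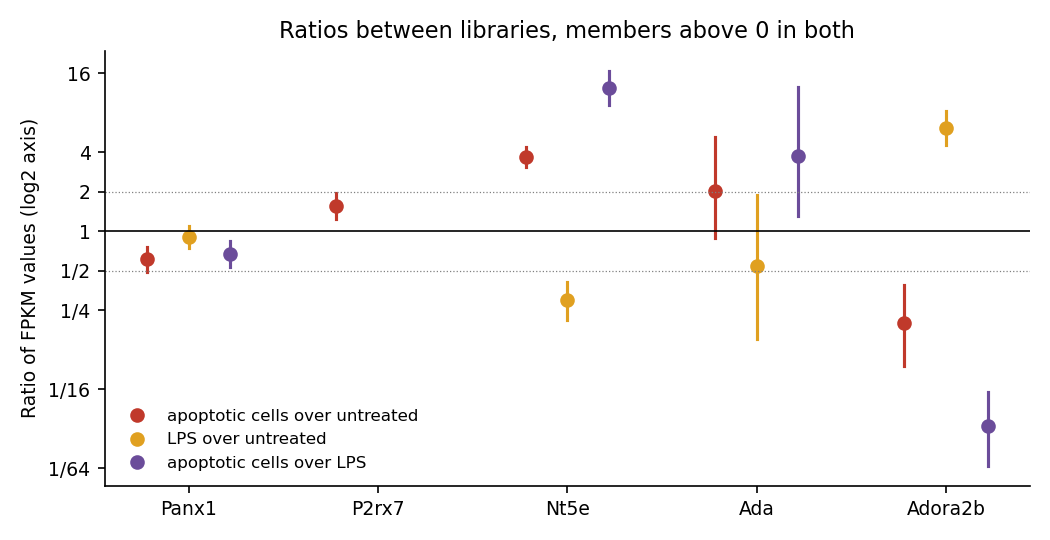
Ratio of FPKM values (log2 axis) for the 5 genes with a ratio in at least 1 comparison; points are plain ratios and bars are 95% counting intervals, with no replicate error. Dotted lines mark 2-fold. Adora2b lies at 6.09 for LPS over untreated and below 1 in both comparisons with apoptotic cells on top, and the bars of Ada over untreated cross 1.

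Over all genes the log2 ratios had a median of -0.13 for apoptotic cells over untreated, -0.40 for LPS over untreated and 0.32 for apoptotic cells over LPS. Median-of-ratios scaling moved these medians by 0.18, 0.51 and -0.33. The scatter of genes with a value in every library shows where 4 of the purine genes fall among 2891 that averaged at least 1 FPKM.

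**Figure D3:**
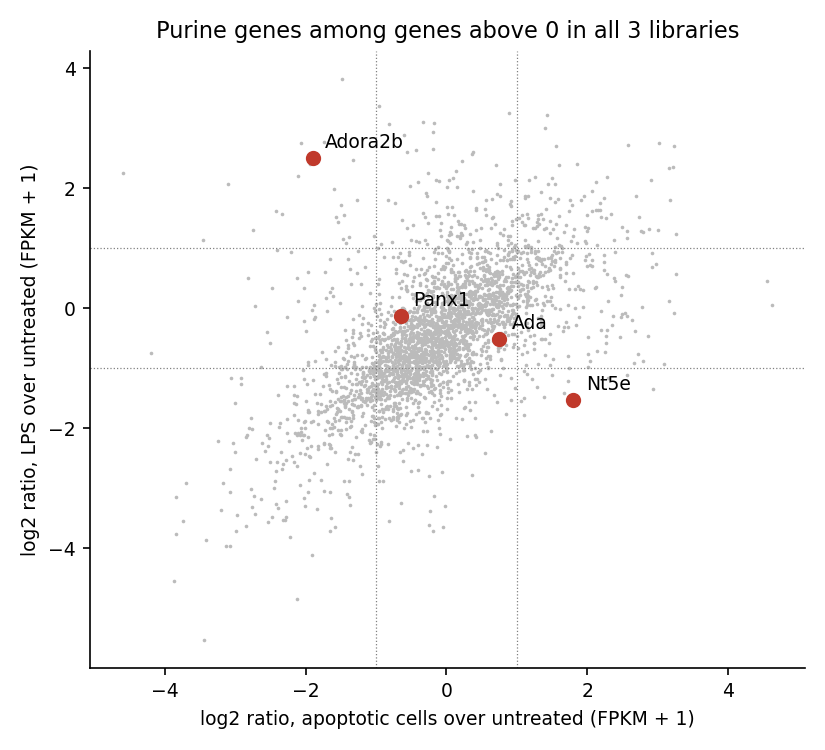
Log2 ratio of FPKM + 1 for apoptotic cells over untreated (x) and LPS over untreated (y), 1 grey point per gene above 0 in all 3 libraries and averaging at least 1 FPKM (2891 genes), with 4 purine genes in red; both axes share the untreated library, which by itself ties them together. Nt5e lies at 1.80 and -1.54, Adora2b at -1.90 and 2.50, and dotted lines mark 2-fold.

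The genes nearest to Nt5e by the distance between their pairs of log2 ratios over untreated, among 1129 coding genes that averaged at least 10 FPKM and are above 0 in all 3 libraries, were Pdxk (pyridoxal kinase), Cryl1 and Gpx1 (glutathione peroxidase 1). Their distances were 0.19, 0.33 and 0.42, and 3 genes in all lay within 0.5. Pdxk stood at 30.2, 2.70 and 8.83 FPKM in the apoptotic-cell, LPS and untreated libraries. Nearest to Adora2b were Socs3 (a cytokine signalling inhibitor), Ch25h (cholesterol 25-hydroxylase) and Ier3 (an immediate-early gene), at 0.11, 0.31 and 0.32, with 4 genes within 0.5. Ier3 stood at 36.0 FPKM after apoptotic cells, 845 FPKM after LPS and 122.5 FPKM untreated. For Ada 70 of 1130 genes lay within 0.5, the nearest being Mrpl34, Etfb and Bnip3l. Ada rests on 18, 5 and 9 estimated reads. The counting intervals of its log2 ratios over untreated (-0.11 to 1.93 and -1.18 to 0.67) are wider than that distance. The number of near genes therefore does not show how common its pattern is. With 3 libraries such nearness is a description only.

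The 11 listed zeros were set beside those of other genes of like level. Among genes whose highest value lies from 3 to 100 FPKM, 37.8% were above 0 in all 3 libraries, as were 4 of the 10 purine genes. A value in the apoptotic-cell library alone, the pattern of P2ry6 and Adora2a, was found in 9.21% of those genes. A value in the LPS library alone, the pattern of Entpd1, was found in 10.4%, and one in the untreated library alone, the pattern of P2rx4 and P2ry2, in 4.63%. Listed zeros went with the number of transcripts that GENCODE M21 annotates for a gene: 66.1% of 548 genes with 1 transcript were above 0 in all 3 libraries, 46.5% of 2216 with 2 to 4, and 26.4% of 3103 with 5 or more. Adora2b has 1 transcript, Ada 2, and Nt5e and Panx1 4 each. P2ry6 has 3, Adora2a 4, P2ry2 6, P2rx7 8, P2rx4 9 and Entpd1 11. All 4 purine genes with 5 or more transcripts have a listed 0, and 4 of the 6 with fewer have none. The part of the transcript number in these zeros was not tested.

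**Figure D4:**
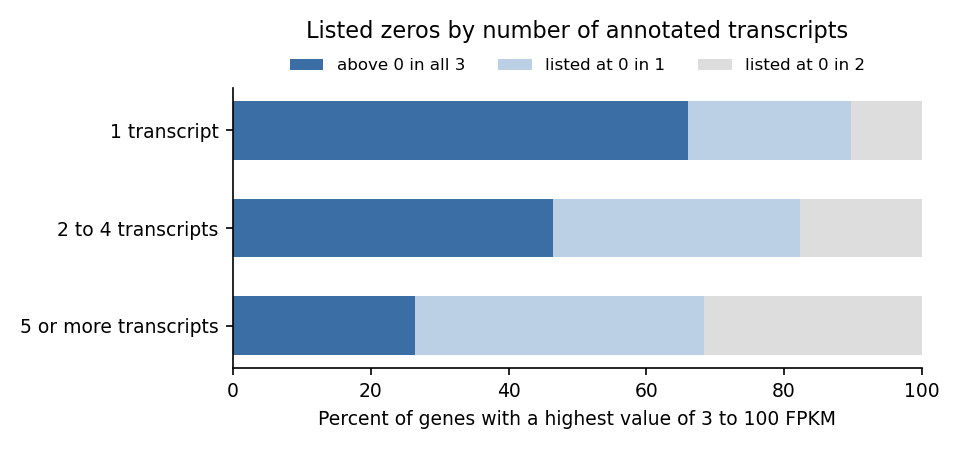
Share of genes (percent, with a highest value of 3 to 100 FPKM) that are above 0 in all 3 libraries, listed at 0 in 1 or listed at 0 in 2, by the number of annotated transcripts. The share above 0 in all 3 is 66.1% with 1 transcript and 26.4% with 5 or more.

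Other genes of the pathway were taken from 7 lists of 91 genes, of which 77 were in the tables, 14 were above 0 in all 3 libraries and 16 were listed at 0 in all 3. These lists were also chosen with earlier results of these data known. The shares and medians of the lists are therefore a description, and nothing is read from their distance to those of all genes. With apoptotic cells over untreated, 6 of 16 genes above 0 in both were at least 2-fold higher (37.5%, against 12.4% of all genes) and 3 lower (18.8%, against 16.4%), around a median of 0.68, where that of all genes is -0.13. With LPS over untreated, 4 of 17 were higher (23.5%, against 8.51%) and 2 lower (11.8%, against 26.2%), around a median of 0.03, where that of all genes is -0.40. With apoptotic cells over LPS, 8 of 28 were higher (28.6%, against 15.7%) and 8 lower (28.6%, against 5.54%), around a median of 0.29, close to the 0.32 of all genes. That even split came to 4 higher and 8 lower with median-of-ratios scaling and to 5 and 8 with upper-quartile scaling. Of the genes at least 2-fold apart, none changed sign under another pseudocount or scaling. With a pseudocount of 5, which weighs low values less, 2 of 9, 5 of 6 and 11 of 16 were still 2-fold apart in the 3 comparisons in this order.

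Among channels, Gja1, which encodes the gap junction protein connexin 43, stood at 1.5 FPKM after apoptotic cells, 28.7 FPKM after LPS and 6.54 FPKM untreated (log2 ratios over untreated -1.59 and 1.98). This is the order seen for Adora2b. Calhm2, a channel of the calcium homeostasis modulator family, stood at 8.42, 0.211 and 9.67 FPKM in the same libraries. Among the other enzymes at the cell surface, Enpp4 (7.07 against 2.13 FPKM, 1.37) and Enpp5 (3.98 against 1.28 FPKM, 1.13) were higher with apoptotic cells than untreated. Alpl, the tissue-nonspecific alkaline phosphatase, which can also make adenosine from AMP, was lower at 0.141 against 3.68 FPKM (-2.04). With LPS, Acpp, a prostatic acid phosphatase with activity on AMP, was higher at 35.5 against 9.35 FPKM (1.82) and Alpl was lower (-1.02), a difference that came to -0.60 with median-of-ratios and -0.77 with upper-quartile scaling. Cd38, which splits NAD, had 26.7 FPKM after apoptotic cells, but the LPS and untreated tables list it at 0.

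After adenosine deaminase, the next steps are purine nucleoside phosphorylase and xanthine oxidoreductase. Pnp2 was at least 2-fold higher with apoptotic cells (14.8 against 6.20 FPKM untreated) and with LPS (20.5 against 6.20 FPKM, log2 ratio 1.58). Pnp was listed at 0 with apoptotic cells and stood at 55.5 FPKM with LPS and 14.2 FPKM untreated (1.89). Pnp and Pnp2 are close copies of each other, so their reads may not be kept apart. Xdh, the xanthine oxidoreductase that makes uric acid, stood at 87.3 FPKM after apoptotic cells, 5.95 FPKM after LPS and 11.8 FPKM untreated, a log2 ratio of 2.78 for apoptotic cells over untreated. It had the largest such ratio of the 16 genes. Slc29a3, a nucleoside transporter of lysosomes, stood at 31.2 FPKM after apoptotic cells and 11.9 FPKM after LPS (1.32, or 0.94 with median-of-ratios scaling), and is listed at 0 untreated. Of the other purine receptors 0 of 14 had a ratio over untreated that passed the filter, and P2ry10, named with these genes but known as a receptor for lysophosphatidylserine, stood at 7.92 FPKM after apoptotic cells against 2.30 FPKM after LPS (1.44).

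Of the genes that act with P2X7, Pycard, the adaptor of the inflammasome, stood at 69.1 FPKM after apoptotic cells, 7.79 FPKM after LPS and 16.4 FPKM untreated (2.01 for apoptotic cells over untreated). Ano6, a scramblase, was also at least 2-fold higher with apoptotic cells (29.7 against 12.9 FPKM untreated). Kcnk6, a potassium channel gene, stood at 16.7 FPKM after apoptotic cells and 6.4 FPKM after LPS (1.26, or 0.89 with median-of-ratios and 0.97 with upper-quartile scaling). Il1b stood at 11.2 FPKM after apoptotic cells and 11441 FPKM after LPS, and is listed at 0 untreated. Of the 9 inflammasome genes in the tables, 3 had a ratio for apoptotic cells over untreated, of which 2 were higher and 0 lower (12.4% and 16.4% of all genes), and 6 had a listed 0 in 1 of these libraries. For LPS over untreated 3 had a ratio, of which 0 were at least 2-fold apart (8.51% higher and 26.2% lower among all genes), and 4 had 1 listed 0, Il1b among them. For apoptotic cells over LPS 3 of 7 were higher and 1 lower (15.7% and 5.54% of all genes), and the 3 came to 1, Pycard, with median-of-ratios or upper-quartile scaling.

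The cAMP-responsive genes include several that also answer to LPS by other routes. Of 12 in the tables, 6 had a listed 0 in 1 of the treated libraries. With apoptotic cells over LPS, 4 of the 5 with a ratio were lower and 1 higher, around a median of -2.29 (5.54% lower and 15.7% higher among all genes, with a median of 0.32). Those lower were the phosphodiesterase gene Pde4b (3.42 against 85.0 FPKM), Nr4a3 (0.433 against 8.21 FPKM), Fosl2 and Il10, while Sik1 was higher (1.15, or 0.85 with median-of-ratios and 0.90 with upper-quartile scaling). Vegfa stood at 11.0 against 24.7 FPKM for apoptotic cells against untreated (-1.10, or -0.89 with median-of-ratios scaling).

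**Figure D5:**
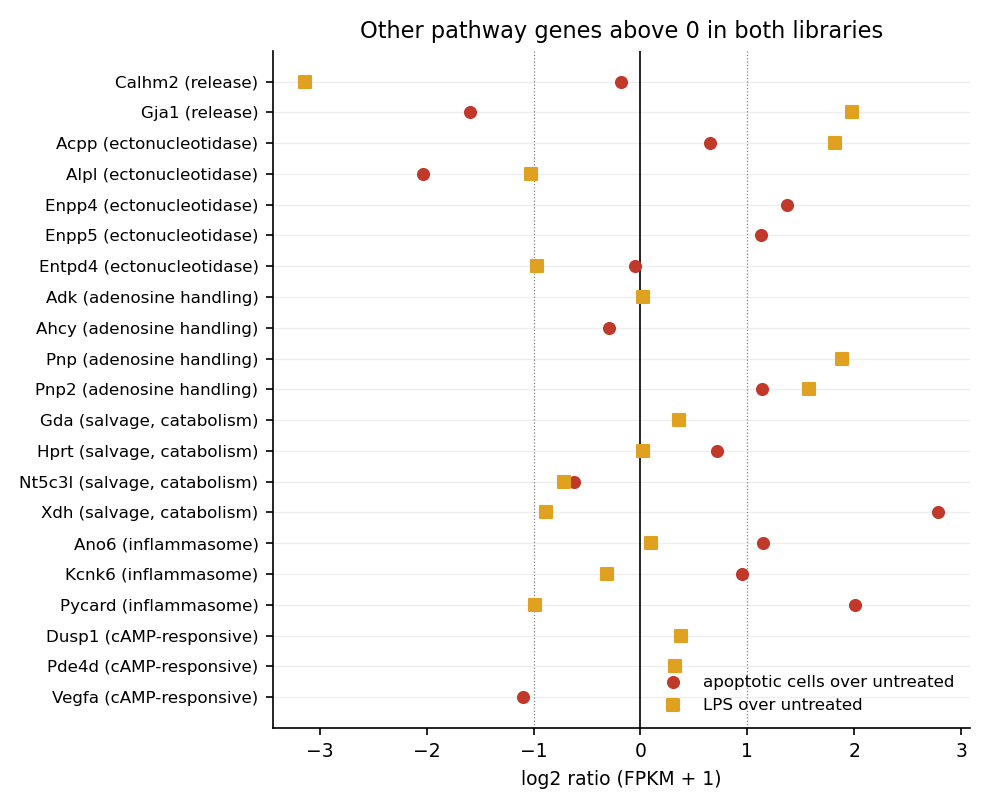
Log2 ratio of FPKM + 1 over untreated for the genes of the 7 pathway lists that are above 0 in both libraries, circles for apoptotic cells and squares for LPS, 1 library each; dotted lines mark 2-fold. Xdh (2.78) and Pycard (2.01) lie farthest right for apoptotic cells and Gja1 (1.98) for LPS.

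Markers of other cells differed between the libraries beside these results, and sums over them rest in part on listed zeros. Summed over 13 T cell and thymocyte markers, the level was 101 FPKM after apoptotic cells, 3.03 FPKM after LPS and 31.0 FPKM untreated, and 2, 6 and 9 of them are listed at 0. T cells also express Nt5e and Ada. Rag1, which defines developing lymphocytes, stood at 41.2 FPKM after apoptotic cells and 0.679 FPKM after LPS and is listed at 0 untreated. The 3 T cell markers with a ratio for apoptotic cells over untreated were all below 2-fold, around a median of -0.23. Cd4 stood at 1.80 against 3.48 FPKM, Cd3g at 10.6 against 12.6 FPKM and Dntt at 13.04 against 13.48 FPKM. So the higher sum after apoptotic cells than untreated came from markers listed at 0 in the untreated library. Against LPS, all 5 markers with a ratio were at least 2-fold higher after apoptotic cells, as were 15.7% of all genes. The other 8 have no ratio in this pair. Of these, 6 are listed at 0 after LPS, and 2 (Lck and Tcf7) have a value after LPS alone.

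Over 9 markers of large peritoneal macrophages the sums were 373, 150 and 448 FPKM in the apoptotic-cell, LPS and untreated libraries, with 7, 4 and 2 listed at 0. The untreated sum holds 349 FPKM of Lyz1, which is listed at 0 in both treated libraries. Cxcl13 stood at 364 FPKM after apoptotic cells, 112 FPKM after LPS and 44.7 FPKM untreated, and Naip1 at 9.20 FPKM after apoptotic cells against 1.34 FPKM untreated. The other 7 are listed at 0 after apoptotic cells. Of those, Timd4 stood at 7.74 FPKM after LPS and 3.29 FPKM untreated, and Vsig4 at 11.6 and 8.04 FPKM. Gata6 stood at 8.81 FPKM after LPS and is listed at 0 untreated. Of these markers 2 of 2 with a ratio were higher with apoptotic cells over untreated, and 2 of 3 with LPS, around a median of 1.03. For these counts and those below, 12.4% of all genes were higher and 16.4% lower with apoptotic cells over untreated. With LPS over untreated 8.51% were higher and 26.2% lower, around a median of -0.40. Over 11 B cell markers the sums were 209, 192 and 863 FPKM in the same library order, with 3, 2 and 7 listed at 0, and 4 of 4 with a ratio were lower with apoptotic cells over untreated and 3 of 3 with LPS. Over 9 mast cell markers they were 20.4, 10.4 and 106 FPKM, with 5 of 6 lower with apoptotic cells and 6 of 6 with LPS. Over 7 mesothelial and fibroblast markers they were 2.05, 1.13 and 24.6 FPKM, with 2 of 2 lower with apoptotic cells and 1 of 1 with LPS. Over 9 neutrophil markers they were 325, 496 and 118 FPKM, and these sums mainly follow S100a8 and Lcn2. S100a8 stood at 116, 222 and 48.1 FPKM and Lcn2 at 187, 272 and 64.1 FPKM in the same library order. With apoptotic cells 3 of 5 were higher (S100a8, Lcn2 and Mmp8) and 0 lower. With LPS 2 of 4 were higher (S100a8 and Lcn2) and 1 lower (Mmp8). S100a9 stood at 1.79 FPKM after apoptotic cells and 1.65 FPKM untreated and is listed at 0 after LPS. Elane is listed at 0 in every library. Of the macrophage markers 5 of 10 were analysed here, among them Cd14 (555 FPKM with apoptotic cells, listed at 0 with LPS, 303 FPKM untreated) and Csf1r (185 FPKM, listed at 0, 56.3 FPKM). In such bulk RNA, fewer cells of a type and less RNA per cell cannot be told apart. The part of these cells in the values of Nt5e, Ada, Adora2a and Adora2b was not tested.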

How the data were processed

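RNA of mouse peritoneal macrophages was sequenced in 3 libraries, 1 each for apoptotic cells, LPS and no treatment, and the groups come from the sample labels. The deposited tables give 1 value per gene symbol, taken as FPKM because the submitters' processing notes name Cufflinks 2.2.1 and Cuffdiff among the authors' tools, alongside TopHat2 2.1.0 and cutadapt 1.14, and mm10 as the build. Options, annotation and strandedness are not stated, so antisense reads may not be separated.

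Analyses used Python 3.11.15 with numpy, pandas and scipy. Ratios are log2((FPKM + 1)/(FPKM + 1)) for genes above 0 in both libraries and, in lists and backgrounds, averaging at least 1 FPKM. There is 1 library per group, so no test was run. Reads were estimated by a search for the step and length offset that bring the smallest values of genes with 1 transcript closest to whole reads. The fit is approximate: from 48.1% to 51.0% of the values used lay within 0.15 of a whole read, so reads were not recovered. The ratio and read steps were also run on simulated data. Those data were built from whole reads, which the deposited values match only in part. They therefore do not show how close the read estimates and counting intervals are here. Gene coordinates and transcript numbers are from GENCODE M21 (mm10), and 98.1% of symbols matched it. The genes and lists were chosen with earlier results of these data known. Members were all named, and list genes were named when at least 2-fold apart, up to 4 a list and comparison; Cd38, Eef1a1 and the cell markers given singly were chosen after their values were seen. The range of 3 to 100 FPKM for listed zeros was likewise chosen after the values were seen. List genes absent from the tables are not analysed here, and protein identities between the receptors, planned, were not run. Alternatives were other pseudocounts, scalings, filters and fold thresholds, and a listed 0 taken as a value.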

Additional observations from a re-analysis of the deposited data

How the results depend on the processing

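Each value rests on 1 library, and the listed zeros take 6 of the 10 genes out of at least 1 comparison. Of the 13 log2 ratios formed for the 10 genes, only that of Panx1 for LPS over untreated changed sign. No paired analysis was possible because each group has 1 library. In what follows, a ratio counts as moved where it leaves its counting interval, a list median where it leaves the interval over its genes (their range in small lists), and a count where it changes by more than 1.5 times. The cause of these moves was not tested.

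With a pseudocount of 5, log2 ratios came to -1.14 for Adora2b with apoptotic cells over untreated, -1.06 for Nt5e with LPS over untreated, and 2.63 for Nt5e and -3.30 for Adora2b with apoptotic cells over LPS. Median-of-ratios scaling gave, for LPS over untreated, 0.44 for Panx1, -0.99 for Nt5e and 3.09 for Adora2b, and for apoptotic cells over LPS -0.89 for Panx1. Upper-quartile scaling gave 0.23 and -0.81 for Panx1 in those comparisons. A pseudocount of 0.1 and rescaling to a common sum left all 13 ratios within their intervals.

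List medians moved in few settings, but the range of a small list is wide, so few moves do not show that a median is stable. Within that range, the purine salvage and catabolism median for LPS over untreated went from -0.35 to 0.25 with median-of-ratios scaling. It came to 0.03 with upper-quartile scaling, 0.19 with a listed 0 as a value and -0.72 with a mean of at least 5 FPKM. With no filter, adenosine uptake and conversion went from 1.58 to 0.80 for LPS over untreated. The inflammasome list came to 3.04 with apoptotic cells and 2.86 with LPS over untreated when a listed 0 was a value, and to 0.24 with LPS under median-of-ratios scaling. For LPS over untreated, other ectonucleotidases came to -1.39 with a pseudocount of 0.1 and -1.33 on rescaling to a common sum, and adenosine uptake and conversion to 2.14 and 1.93 with median-of-ratios and upper-quartile scaling.

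Counts at least 2-fold higher and lower are given in the order apoptotic cells over untreated, LPS over untreated and apoptotic cells over LPS. For the 10 genes they were 1 and 1, 1 and 1, and 2 and 1 as reported. They were 3 and 3, 2 and 4, and 5 and 2 with a listed 0 as a value, 2 and 2, 1 and 1, and 2 and 1 at 1.5-fold and 0 and 0, 1 and 0, and 1 and 1 at 4-fold. Median-of-ratios scaling gave 0 lower with LPS, and a pseudocount of 5 and a mean of at least 5 FPKM each gave 1 higher with apoptotic cells over LPS.

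For the pathway genes they were 6 and 3, 4 and 2, and 8 and 8 as reported, 7 and 3, 4 and 4, and 10 and 8 with a pseudocount of 0.1, 2 and 0, 4 and 1, and 4 and 7 with one of 5, 7 and 3, 4 and 4, and 10 and 8 on rescaling to a common sum, 7 and 2, 4 and 1, and 4 and 8 with median-of-ratios and 7 and 3, 4 and 1, and 5 and 8 with upper-quartile scaling. They were 26 and 8, 22 and 6, and 17 and 15 with a listed 0 as a value, 4 and 2, 4 and 1, and 6 and 6 with a mean of at least 5 FPKM, 9 and 4, 4 and 6, and 13 and 9 at 1.5-fold and 2 and 1, 0 and 1, and 3 and 5 at 4-fold.

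For all genes they were 418 and 554, 291 and 896, and 722 and 255 as reported, 235 and 228, 164 and 321, and 278 and 155 with a pseudocount of 5, 538 and 428, 647 and 450, and 419 and 443 with median-of-ratios and 438 and 493, 482 and 586, and 457 and 391 with upper-quartile scaling. They were 2682 and 1378, 2605 and 1674, and 1741 and 1423 with a listed 0 as a value, 297 and 268, 204 and 429, and 398 and 163 with a mean of at least 5 FPKM, 746 and 1021, 543 and 1461, and 1537 and 496 at 1.5-fold and 96 and 143, 68 and 194, and 148 and 90 at 4-fold.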
